A study of Oncorhynchus mykiss with 9 samples.

Results

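The genes described here were 3 of the 46585 in the count tables: GSONMG00080018001, described in the tables as CCL4 protein precursor, GSONMG00017247001, described as CC chemokine receptor 7, and GSONMG00049598001, described as C-C chemokine receptor type 7-like. They are called CCL4, CCR7 and CCR7-like below. These genes were chosen by their identifiers with their measured levels in TNP-LPS stimulated and control cells already known, so for them the differences of TNP-LPS from either other condition are given as descriptions, with no test. All 3 passed the filter on low counts, which kept the 31691 genes that reached 5 reads in 1 library or more. No chromosome positions or sequences are given, since none of the identifiers could be matched to the reference table of RefSeq genes.

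CCL4 is a small secreted protein of the CC chemokine family, and in mammals it is made by activated macrophages, T cells and B cells and attracts other leukocytes. CCR7 is a G protein-coupled receptor on lymphocytes and mature dendritic cells. In mammals it follows gradients of CCL19 and CCL21, which bring B cells that have met antigen to the border of the T cell zone in spleen and lymph node. Teleost fish have a spleen but no lymph nodes, and the genome duplication of the salmonid ancestor left many trout genes in more than 1 copy.

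The libraries came from splenic IgM+ B cells of healthy female rainbow trout (Oncorhynchus mykiss) of 50 to 70 g. Splenic leukocytes were cultured for 24 h with TNP-LPS, with TNP-KLH, or without antigen (control), and the IgM+ B cells were then isolated by FACS, so the antigens met the whole leukocyte mixture and not purified B cells. TNP is the trinitrophenyl hapten, carried by bacterial lipopolysaccharide in TNP-LPS, which counts as a thymus-independent type 1 antigen in mammals, and by the protein keyhole limpet hemocyanin in TNP-KLH, a model thymus-dependent antigen. The sample labels give the dose of both antigens as 5 mg/ml, while the methods of the study use a unit that is smaller. Each condition had 3 RNA-seq libraries numbered 1 to 3. The series calls them biological replicates without saying whether each came from a different fish, so the p-values measure the spread between these libraries.

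Each library held between 8080787 and 12164154 counts (median 9237306). Levels are CPM, counts scaled to a common library size with TMM factors, and a gene was called when edgeR's quasi-likelihood test gave a Benjamini-Hochberg adjusted p under 0.05 over all 31691 genes kept. B cell markers (36 kept) were CD79, CD22 and BLNK genes and genes described as Ig mu heavy chain disease protein-like. Each of the Ig mu genes had at most 13.3 CPM in a library. The B cell markers summed to 2009 to 2393 CPM with TNP-LPS, 2764 to 3015 with TNP-KLH and 3390 to 4011 in control cells. T and NK cell markers (23 kept) summed to 24.1 to 65.7, 31.7 to 144 and 55.5 to 183 CPM in the same order of conditions, and markers of macrophages and dendritic cells (34 kept) to 62.7 to 110, 122 to 163 and 148 to 203. Neutrophil markers (9 kept) summed to 686 to 1332, 776 to 966 and 757 to 805 CPM. Their reads were mostly of neutrophil cytosolic factor 1-like, which B cells also express, and the list included eosinophil peroxidase-like. Hemoglobin genes, the erythrocyte markers, stood apart in the libraries numbered 2, with 386 CPM in TNP-LPS replicate 2, 2338 in TNP-KLH replicate 2 and 6781 in control replicate 2, against 29.0 to 251 CPM in the other 6 libraries. Thrombocyte markers (8 kept) summed to 269 CPM in control replicate 2 and to 45.1 to 100 in the others. These are bulk measurements, in which more cells that carry a transcript and more transcript per cell cannot be told apart.

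CCL4 stood highest with TNP-LPS and lowest in control cells. It had 6542, 13702 and 3738 CPM in TNP-LPS replicates 1 to 3, against 1252, 2523 and 1175 CPM with TNP-KLH and 339, 914 and 476 CPM in control cells. The groups did not overlap: the lowest TNP-LPS library lay above the highest TNP-KLH library, and the lowest TNP-KLH library, at 1175 CPM, lay above the highest control library, at 914 CPM. Here and for every gene below, such separation is a description only. CCL4, CCR7 and CCR7-like were chosen with their TNP-LPS and control levels known, and the share of all genes without overlap was not counted. The means were 7994 ± 5138, 1650 ± 757 and 576 ± 301 CPM (SD, n = 3 each), 13.9-fold higher with TNP-LPS than in control cells (log2 change 3.79, SE 0.58) and 4.85-fold higher than with TNP-KLH (2.28, SE 0.54).

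Measured as a share of all counts, CCL4 took 0.521% (95% Wilson interval 0.516 to 0.526), 1.30% (1.29 to 1.31) and 0.363% (0.360 to 0.367) of the TNP-LPS libraries. It took 0.137%, 0.246% and 0.127% of the TNP-KLH libraries and 0.0363%, 0.0948% and 0.0503% of the control libraries. These intervals cover counting error only, and the libraries of a condition lay far outside each other's intervals. Ordered by reads, with no correction for gene length, CCL4 was gene 7, gene 2 and gene 11 of the TNP-LPS libraries. It ranked 71, 27 and 84 in the TNP-KLH libraries and 388, 153 and 265 in the control libraries.

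The size of the CCL4 difference changed when a single library numbered 2 was left out. The highest library exceeded the lowest by 3.67-fold within TNP-LPS, 2.15-fold within TNP-KLH and 2.70-fold within control cells, and replicate 2 was the highest in each. Without TNP-LPS replicate 2, CCL4 was 8.92-fold higher with TNP-LPS than in control cells and 3.12-fold higher than with TNP-KLH. Without control replicate 2 the difference from control cells was 19.9-fold. Taken within a replicate number, the ratio of TNP-LPS to control was 19.3, 15.0 and 7.86 for numbers 1 to 3, and the ratio of TNP-LPS to TNP-KLH was 5.23, 5.43 and 3.18.

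CCR7 had 142, 226 and 158 CPM in TNP-LPS replicates 1 to 3, against 50.2, 86.6 and 47.1 CPM with TNP-KLH and 43.3, 33.3 and 24.7 CPM in control cells. No library of a condition overlapped another condition, but the nearest neighbours were close, with 47.1 CPM in the lowest TNP-KLH library and 43.3 CPM in the highest control library. Means were 175 ± 44.8, 61.3 ± 21.9 and 33.8 ± 9.28 CPM (SD, n = 3 each). TNP-LPS stood 5.19-fold above control (log2 fold change 2.37, SE 0.33) and 2.86-fold above TNP-KLH (1.52, SE 0.32). Within replicate numbers 1 to 3 the ratio of TNP-LPS to control was 3.27, 6.78 and 6.38.

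CCR7-like followed the same order of conditions at fewer reads. It had 50.5, 87.5 and 69.4 CPM with TNP-LPS, against 19.7, 34.8 and 19.2 CPM with TNP-KLH and 14.4, 10.7 and 10.8 CPM in control cells, again without overlap. Means were 69.1 ± 18.5, 24.6 ± 8.84 and 11.9 ± 2.09 CPM (SD, n = 3 each). TNP-LPS stood 5.79-fold above control (log2 fold change 2.53, SE 0.31) and 2.81-fold above TNP-KLH (1.49, SE 0.30). Within replicate numbers the ratio of TNP-LPS to control was 3.51, 8.20 and 6.42. The receptor genes were spread less than the chemokine: within a condition the highest library exceeded the lowest by 1.60-fold to 1.84-fold for CCR7 and by 1.35-fold to 1.81-fold for CCR7-like.

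**Figure D1:**
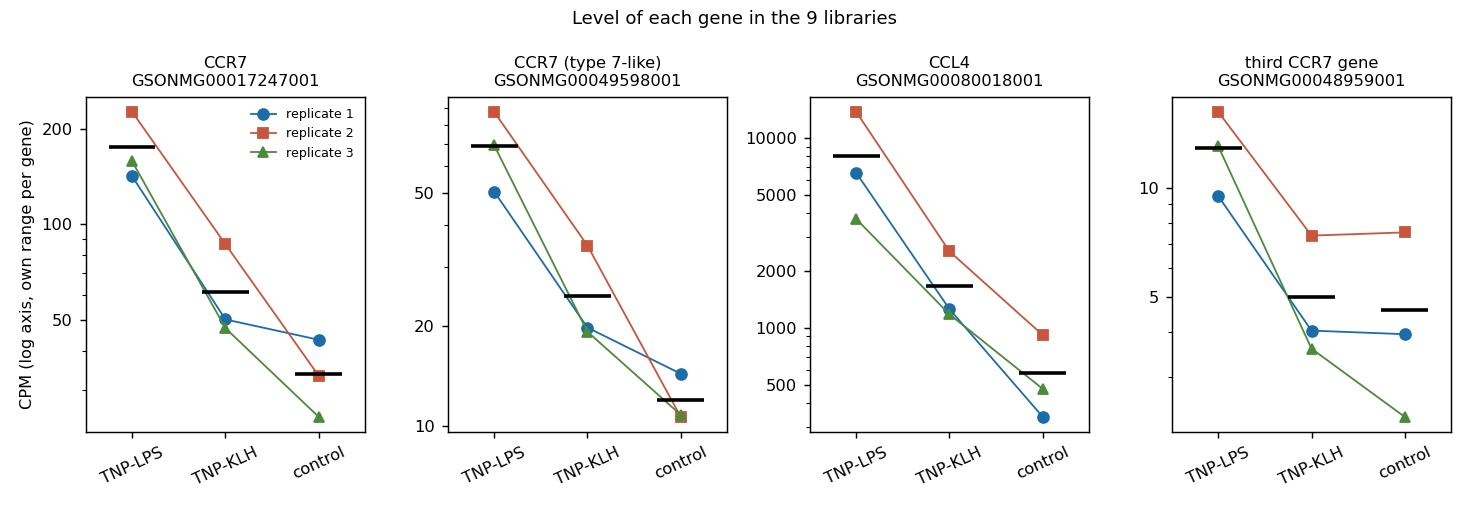
Level of CCR7, CCR7-like, CCL4 and the third CCR7 gene in the 9 libraries, in CPM on a log axis with its own range for each gene. Symbols are libraries, lines join libraries of the same replicate number and black bars are means of 3. For CCR7, CCR7-like and CCL4 the conditions do not overlap, and the third gene stands at about the same level with TNP-KLH and in control cells. The share of all genes without overlap was not counted.

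In the comparison of TNP-LPS with control, 10.04% of all genes tested were called higher and 6.73% lower, and between TNP-LPS and TNP-KLH 2.12% were called higher and 0.745% lower. Nothing is read from the place of the 3 genes among them, because the first of these comparisons was used to choose them and the second shares its TNP-LPS libraries.

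Whether these genes also moved with TNP-KLH was asked in the comparison of TNP-KLH with control. It shares the control libraries with the comparison used to choose the genes, and they were chosen with earlier results of these data known. Its p-values are therefore not free of that choice. CCL4 was 2.86-fold higher with TNP-KLH than in control cells (log2 change 1.52, SE 0.53, 95% interval 0.33 to 2.70), but the difference was not called (edgeR adjusted p = 0.255). CCR7 was 1.81-fold higher (0.86, SE 0.32, interval 0.15 to 1.57, edgeR adjusted p = 0.288). CCR7-like was 2.06-fold higher (1.04, SE 0.30, interval 0.37 to 1.71, edgeR adjusted p = 0.159). In this comparison 0.760% of all genes tested were called higher and 0.117% lower, so a count of 0 of 3 lay near the background. The unadjusted edgeR p was 0.0171 for CCL4, 0.0228 for CCR7 and 0.00614 for CCR7-like. Nothing is read from these values, because the share of all genes with an unadjusted p under 0.05 was not counted. The same limit holds for the unadjusted counts of the gene lists below.

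This call depended on whether libraries with the same number were treated as pairs. Every gene was higher with TNP-KLH in every number: the ratio to control was 3.69, 2.76 and 2.47 for CCL4, 1.16, 2.60 and 1.90 for CCR7, and 1.37, 3.26 and 1.77 for CCR7-like. With the replicate block the log2 fold changes were 1.53, 0.82 and 0.98, and all 3 were called (edgeR adjusted p = 8.20e-04 for CCL4, 0.0247 for CCR7 and 0.0118 for CCR7-like). The block also raised the calls among all 31691 genes, to 1918 higher and 1340 lower, from 241 and 37 without it. With the replicate block and the libraries of 1 number left out, CCL4 was called whichever number was omitted (1.38, 1.59 and 1.72, adjusted p = 0.00219, 0.00117 and 0.00784 without numbers 1, 2 and 3). CCR7-like was called without number 1 or 2 (1.27 and 0.66, adjusted p = 0.00836 and 0.0432) but not without number 3 (1.10, adjusted p = 0.0543). CCR7 was called only without number 1 (1.16, adjusted p = 0.00528), and not without number 2 (0.57, adjusted p = 0.109) or number 3 (0.82, adjusted p = 0.155). Without the block, none of the 9 fits that left out 1 library called any of the 3 genes. DESeq2 without a block called CCR7-like (adjusted p = 0.0235) and not CCL4 (0.0520) or CCR7 (0.0954).

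**Figure D2:**
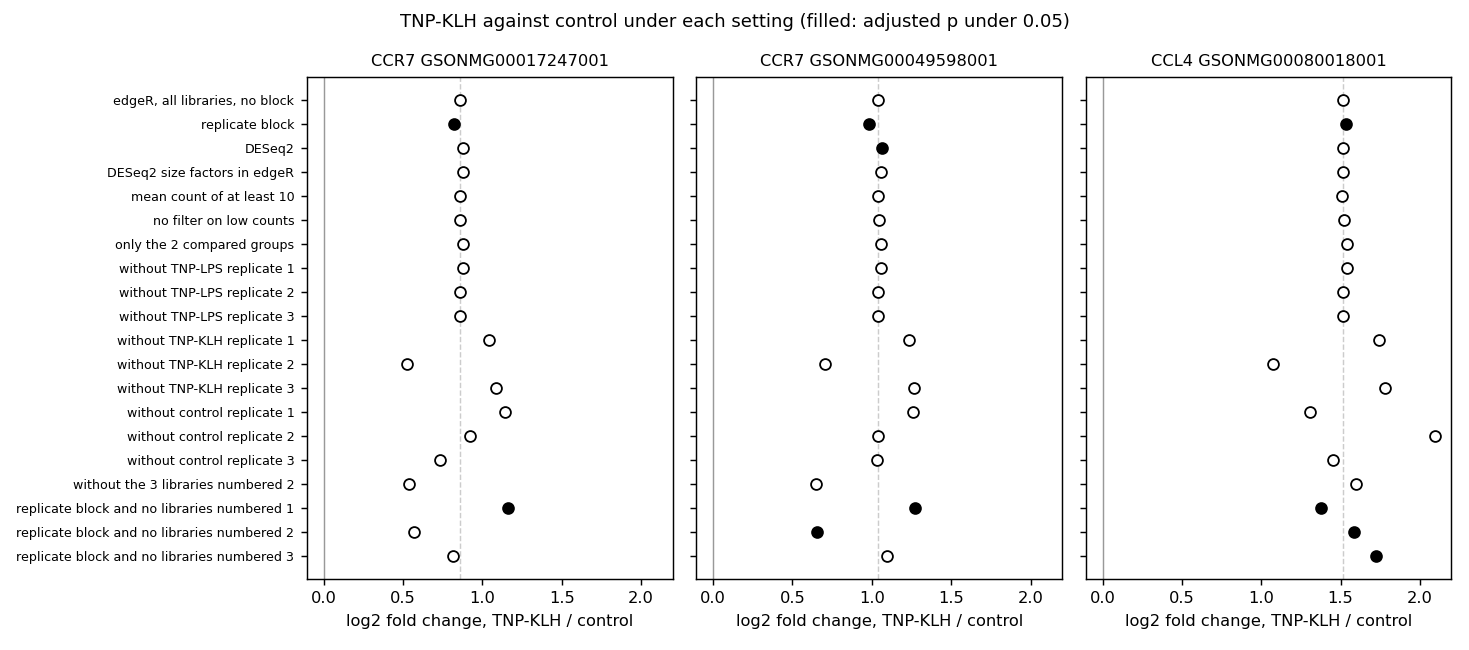
Log2 fold change of TNP-KLH against control for the 3 genes under each processing setting, 1 setting per row. Filled symbols have an adjusted p under 0.05 and the dashed line is the value from edgeR with all libraries and no block. All values lie above 0, between 0.53 and 2.09, and every filled symbol is a fit with the replicate block or, for CCR7-like, DESeq2.

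The copies of CCR7 were then compared with each other by the ratio of their reads. The ratio was not itself used to choose them, but both copies were chosen with their TNP-LPS and control levels known. That choice limits how far the ratio could differ between conditions, so its test is not independent of the choice. A ratio of reads also carries the ratio of the transcript lengths, so only its change between libraries is read, and reads that fit near-identical copies equally well could have been assigned to either. CCR7 had 2.81, 2.58 and 2.27 reads per CCR7-like read with TNP-LPS, 2.54, 2.49 and 2.45 with TNP-KLH and 3.01, 3.13 and 2.29 in control cells. The groups overlapped. The mean log2 ratio was 1.35 ± 0.15, 1.32 ± 0.03 and 1.48 ± 0.25 (SD, n = 3 each), and no difference between the 3 conditions was detected (exact permutation test over the 3 groups, p = 0.521, the smallest p possible being 0.00357). Keeping the replicate numbers together gave an exact permutation p of 0.389. Counting error alone gave wide intervals in the libraries with few reads: the exact 95% interval of the ratio was 2.49 to 3.95 in control replicate 2, from 319 and 102 reads, against 2.38 to 2.80 in TNP-LPS replicate 2, from 2140 and 828 reads.

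The third CCR7 gene, GSONMG00048959001, is also described as CC chemokine receptor 7, and was not among the genes chosen. It had 9.47, 16.2 and 13.0 CPM with TNP-LPS, 4.04, 7.37 and 3.60 CPM with TNP-KLH and 3.94, 7.52 and 2.33 CPM in control cells, so that TNP-LPS stood apart while TNP-KLH and control overlapped. It rose with TNP-LPS against control (1.49 log2 units, SE 0.45, edgeR adjusted p = 0.0475), close to the threshold: of the 9 fits that left out 1 library, the call stood only without TNP-KLH replicate 2 and without control replicate 2, where the change was largest at 2.06 (adjusted p = 0.0145), and the highest adjusted p was 0.151, without TNP-LPS replicate 2. With the replicate block the adjusted p was 3.31e-04. With TNP-KLH its log2 fold change against control was 0.13 (SE 0.45, edgeR adjusted p = 0.953). Between TNP-LPS and TNP-KLH it was 1.36 (SE 0.45, adjusted p = 0.156), called with the replicate block (adjusted p = 0.00249).

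Reads of CCR7 per read of the third gene numbered 15.0, 14.0 and 12.2 with TNP-LPS, 12.4, 11.7 and 13.1 with TNP-KLH and 11.0, 4.43 and 10.6 in control cells. For CCR7-like the same ratio was 5.33, 5.41 and 5.34 with TNP-LPS, 4.89, 4.72 and 5.33 with TNP-KLH and 3.64, 1.42 and 4.63 in control cells. Control replicate 2 stood apart in both ratios, with 72 reads of the third gene against 39 and 30 in the other control libraries. That library also held the highest sums of hemoglobin, thrombocyte and T and NK cell markers (6781, 269 and 183 CPM). Its sums of B cell markers and of macrophage and dendritic cell markers (4011 and 203 CPM) were the highest as well. TNP-KLH replicate 2 held 2338 CPM of hemoglobin and 144 CPM of T and NK cell markers, and its ratios were 11.7 and 4.72. The third gene was highest in replicate 2 of every condition. The part of cells other than B cells in the ratios was not tested.

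**Figure D3:**
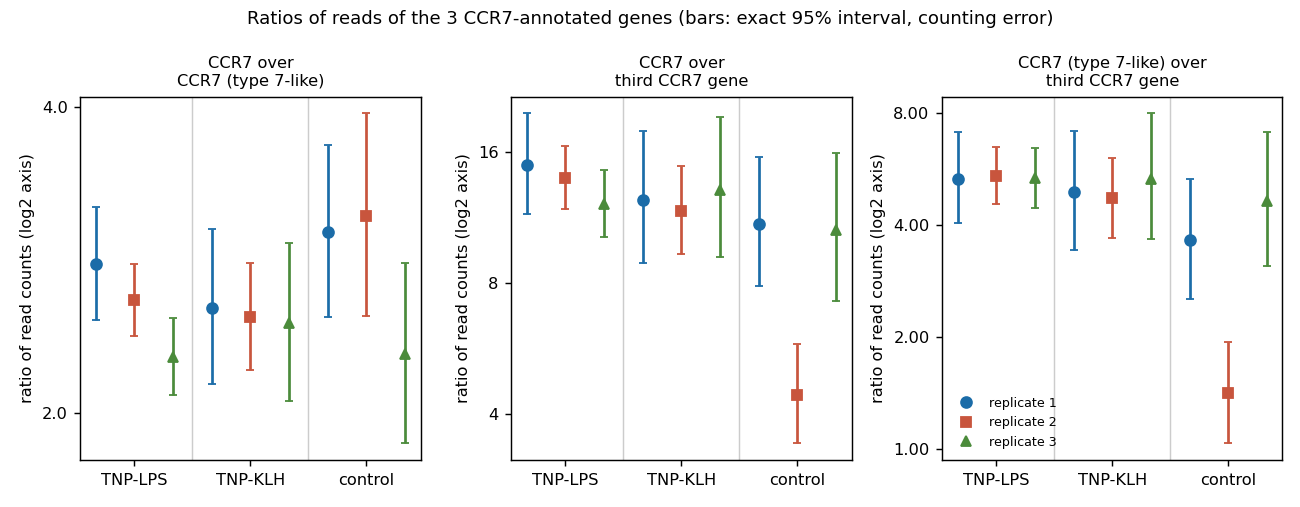
Ratios of read counts between the 3 genes described as CCR7, on log2 axes, for each library. Bars are exact 95% intervals for counting error. The ratio of CCR7 to CCR7-like stays between 2.27 and 3.13 in all 9 libraries, and control replicate 2 has the lowest ratio to the third gene in the other panels, at 4.43 and 1.42.

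Across the 9 libraries the log2 CPM of CCR7 and CCR7-like had a Pearson r of 0.990, and CCR7-like was the gene most like CCR7 among 15984 genes with a mean of at least 5 CPM and a description. Libraries of 1 condition share their treatment, so much of such a correlation is the step between conditions. After each condition's mean was subtracted, r was 0.915. This was not particular to the CCR7 pair. For other genes like CCR7, named in the next paragraph, the same r with CCR7 was 0.943 (nucleoporin p58/p45), 0.910 (eIF2 subunit 2-like), 0.911 (RPC2) and 0.848 (cathepsin D-like). These were chosen for their correlation with CCR7 over the same libraries, so a high r follows largely from that choice. How common such an r is among all genes was not counted. CCL4 had an r of 0.932 with CCR7 and 0.926 with CCR7-like, and only 0.485 and 0.380 after the condition means were subtracted. The deviations show where they part: in control cells replicate 1 was the highest for CCR7 and CCR7-like and the lowest for CCL4, while replicate 2 was the highest for all 3 genes with TNP-LPS and with TNP-KLH. In the order of likeness to CCL4, CCR7 was 331st and CCR7-like 396th.

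The other genes most like CCR7 were those for nucleoporin p58/p45 (GSONMG00028520001, r 0.989), subunit 2-like of the translation initiation factor eIF2 (GSONMG00028382001, r 0.988), the RNA polymerase III subunit RPC2 (GSONMG00002985001, r 0.986) and the lysosomal protease cathepsin D-like (GSONMG00067881001, r 0.983). Most like CCR7-like were subunit 4 of the anaphase-promoting complex (GSONMG00006909001, r 0.991), CCR7 itself, RPC2 (r 0.985), the histone chaperone subunit SSRP1-like (GSONMG00064755001, r 0.984) and caspase 6 (GSONMG00032818001, r 0.982). For CCL4 they were a mitochondrial DNA topoisomerase I-like gene (GSONMG00045515001, r 0.992), RNA-binding protein 28 (GSONMG00048481001, r 0.992), FAST kinase domain-containing protein 3-like (GSONMG00077702001, r 0.991), MSS4-like (GSONMG00073845001, r 0.988) and scaffold attachment factor B2-like (GSONMG00075675001, r 0.986). All of them had the order TNP-LPS, TNP-KLH, control in their means, which follows largely from choosing them by correlation over the same libraries. Their differences between conditions were smaller than those of the members. Cathepsin D-like came nearest, at 65.3, 23.3 and 13.8 CPM, and nucleoporin p58/p45 had 47.4, 31.2 and 26.6 CPM.

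Among the other chemokine ligands, 23 of 41 genes in the tables were kept, and edgeR called none in any comparison. Of all genes, 10.04% were called higher and 6.73% lower for TNP-LPS against control. The shares were 0.760% and 0.117% for TNP-KLH against control, and 2.12% and 0.745% between the antigens. Many of the ligands averaged under 2 CPM in every condition, so few reads stood behind their tests and fold changes. At an unadjusted p under 0.05, each antigen set against control had 1 ligand higher and 2 lower, and the antigens set against each other had none. Their median log2 fold change was −0.39 for TNP-LPS against control, beside −0.09 over all genes, and 0.29 for TNP-KLH against control, beside −0.03. The gene nearest to CCL4 in name with appreciable reads, C-C motif chemokine 4-like (GSONMG00063791001), had 26.1, 11.9 and 6.03 CPM with TNP-LPS, 19.1, 20.4 and 4.91 CPM with TNP-KLH and 5.66, 10.2 and 0.856 CPM in control cells. Here the conditions overlapped, and the log2 fold changes against control were 1.39 with TNP-LPS (SE 0.82, edgeR adjusted p = 0.302) and 1.42 with TNP-KLH (SE 0.82, adjusted p = 0.543), both called only with the replicate block (adjusted p = 0.00223 and 0.00863). The remaining genes named for chemokine 4, GSONMG00051250001 and GSONMG00039485001, stayed under 2 CPM in every library.

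Of the ligands that reached a mean of 2 CPM in a condition, the one with the largest fitted increase with TNP-LPS was C-X-C motif chemokine 11-1-like (GSONMG00058131001), of a family that in mammals is ligand to CXCR3. It had 716, 142 and 70.5 CPM with TNP-LPS, 167, 50.5 and 24.3 CPM with TNP-KLH and 57.7, 18.3 and 7.16 CPM in control cells. TNP-KLH overlapped both other conditions, while the lowest TNP-LPS library, at 70.5 CPM, lay above the highest control library, at 57.7 CPM. Replicate 1 was the highest in each condition, unlike CCL4, for which it was replicate 2. The log2 fold change of TNP-LPS against control was 3.48 (SE 1.09, edgeR adjusted p = 0.0564), with the replicate block 4.04e-08 and with DESeq2 0.0120. It was 1.94 (adjusted p = 0.226) without TNP-LPS replicate 1. For TNP-KLH against control it was 1.54 (SE 1.02, adjusted p = 0.607, with the replicate block 1.65e-04).

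For the ligands of CCR7 itself, the CCL19-like gene (GSONMG00014841001) had few reads and no detectable difference in the 3 comparisons (edgeR adjusted p = 0.903, 0.883 and 0.794), with 4.66, 1.27 and 0 CPM with TNP-LPS, 7.74, 5.92 and 0.218 CPM with TNP-KLH and 3.24, 4.28 and 0 CPM in control cells. In mammals this chemokine comes from stromal and dendritic cells. A gene described only as CC chemokine precursor (GSONMG00017873001), whose receptor is not given, was at 0 in all 3 TNP-LPS libraries. It had 0.327, 0 and 0 CPM with TNP-KLH and 3.44, 16.8 and 0 CPM in control cells. Against control the edgeR adjusted p was 0.0551 with TNP-LPS (with the replicate block 2.32e-04). With TNP-KLH it was 0.257 (with the replicate block 0.00291). Its control level came mostly from replicate 2, the library rich in hemoglobin.

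Of the other chemokine receptors 21 of 32 were kept, the third CCR7 gene included. With TNP-LPS against control 2 rose and 2 fell, beside 10.04% and 6.73% of all genes, and the median log2 fold change was −0.27. C-X-C chemokine receptor type 3-like (GSONMG00064385001), which in mammals guides activated lymphocytes to inflamed tissue, rose with TNP-LPS: it had 18.9, 39.0 and 17.1 CPM, against 3.64, 4.70 and 0.856 CPM in control cells (log2 change 3.04, SE 0.59, edgeR adjusted p = 0.00676). Of 16 alternatives, only the fit without the 3 libraries numbered 2 did not call it (adjusted p = 0.0599). With TNP-KLH it had 15.9, 12.2 and 6.76 CPM and was not called (1.94, SE 0.58, adjusted p = 0.178) except with the replicate block (8.72e-04) or DESeq2 (0.0200). The third CCR7 gene was the other receptor that rose.

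C-C chemokine receptor type 4-like (GSONMG00030070001) fell to 0.466, 1.06 and 0.836 CPM with TNP-LPS, against 7.18, 4.18 and 7.47 CPM in control cells (log2 change −2.95, SE 0.47, edgeR adjusted p = 0.00223), and kept this call under all 16 alternative settings. Against the 2.62, 6.10 and 3.92 CPM with TNP-KLH it also fell (−2.38, SE 0.46, adjusted p = 0.0313), the only receptor called between the antigens, where 0.745% of all genes were called lower. C-X-C chemokine receptor type 1-like (GSONMG00013155001), a receptor for neutrophil attractants in mammals, fell with TNP-LPS to 0.932, 0.845 and 1.11 CPM, against 3.84, 1.88 and 3.03 CPM in control cells (−1.58, SE 0.48, adjusted p = 0.0496), and kept the call only without TNP-KLH replicate 2 or control replicate 2 when 1 library was left out (highest adjusted p 0.145). With TNP-KLH against control no receptor was called by edgeR, where 0.760% of all genes were called higher and 0.117% lower. At an unadjusted p under 0.05, 1 receptor stood higher and 1 lower. C-X-C chemokine receptor type 4-like (GSONMG00075098001), whose mammalian counterpart holds B cells in bone marrow and follicles, stood at 93.0, 464 and 245 CPM with TNP-LPS, 114, 582 and 293 CPM with TNP-KLH and 207, 778 and 505 CPM in control cells, in the order of the replicate numbers. The conditions overlapped, while within each number the level was lowest with TNP-LPS and highest in control cells. Without the replicate block it was not called by edgeR (TNP-LPS against control −0.89, adjusted p = 0.448, and TNP-KLH against control −0.59, adjusted p = 0.816). With the block it was called lower in both (−0.98, edgeR adjusted p = 0.000436, and −0.69, edgeR adjusted p = 0.0208), and not between the antigens (TNP-LPS against TNP-KLH −0.29, edgeR adjusted p = 0.350).

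**Figure D4:**
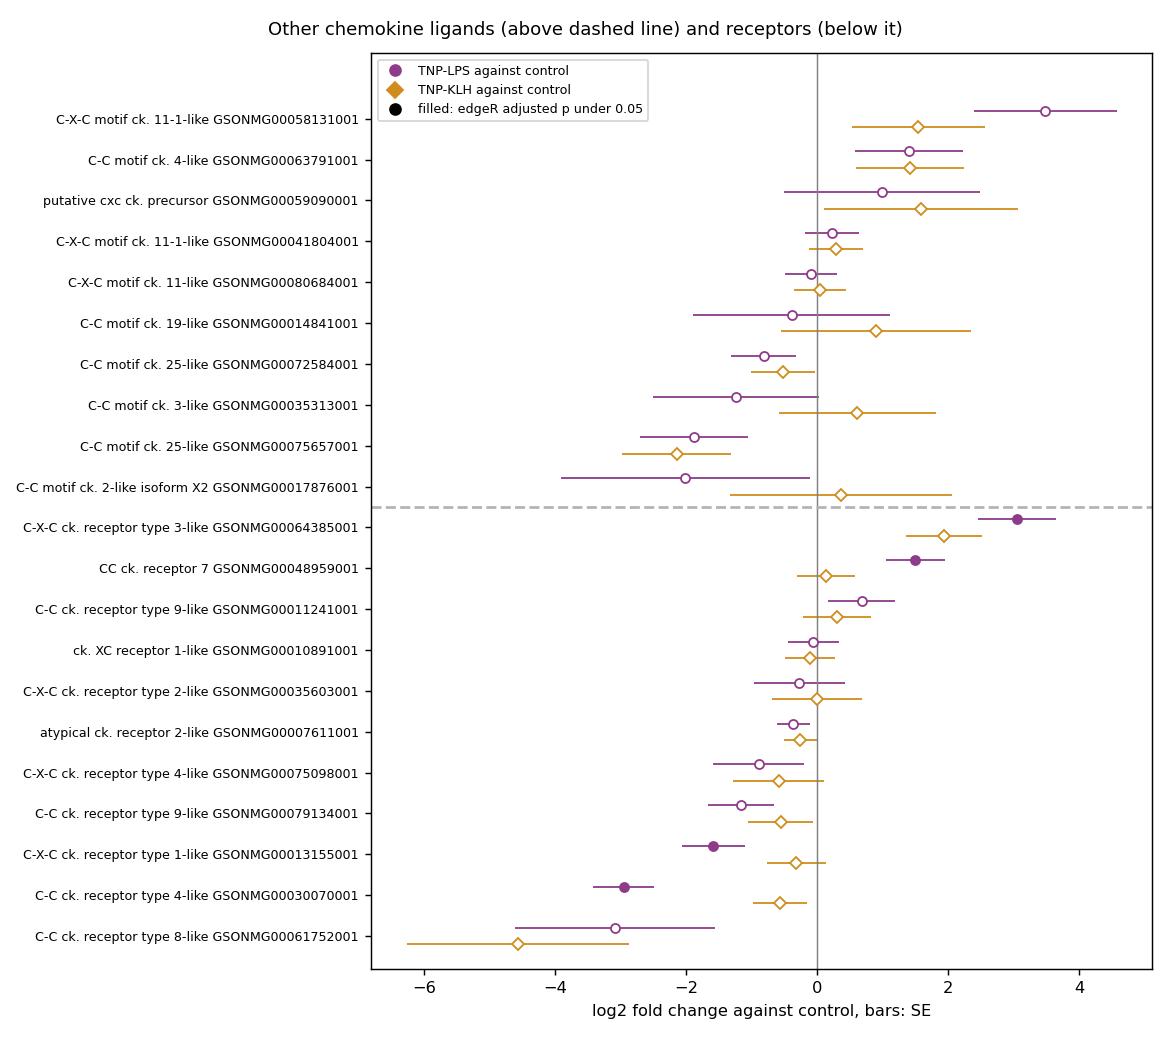
Log2 fold change against control, with its standard error, of the other chemokine ligands and receptors that averaged at least 2 CPM in a condition and had reads in every condition. Circles are TNP-LPS and diamonds TNP-KLH, filled where the edgeR adjusted p is under 0.05 without a block. No ligand is filled, and the filled receptors are CXCR3-like at 3.04, the third CCR7 gene at 1.49, CXCR1-like at −1.58 and CCR4-like at −2.95, all with TNP-LPS.

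The list of chemokine receptor signalling, integrin and other trafficking receptor genes had 87 kept from 109. Of these, 14 fell and 1 rose with TNP-LPS against control and the rest did not pass the test, where 6.73% of all genes were called lower and 10.04% higher. The list had a median log2 fold change of −0.59 beside −0.09 over all genes. None was called by edgeR with TNP-KLH against control, where 0.760% of all genes were called higher and 0.117% lower. In that comparison 2 genes of the list stood higher and 9 lower at an unadjusted p under 0.05. With the replicate block the counts over the 3 lists together were larger. For TNP-LPS against control they were 7 higher and 33 lower, where edgeR without it called 3 and 16. Of all genes the block called 5167 and 4489 there, against 3181 and 2133 without it. For TNP-KLH against control the list counts were 4 higher and 14 lower, where edgeR without the block called none and DESeq2 called 2 and 3. Of all genes the block called 1918 and 1340 there, and DESeq2 1007 and 417.

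The trafficking genes with the smallest p were all lower with TNP-LPS. Integrin beta-7-like (GSONMG00056855001), part of the mammalian gut-homing integrin, had 41.5, 47.0 and 106 CPM, against 650, 1330 and 969 CPM in control cells (log2 change −3.92, SE 0.44, edgeR adjusted p = 4.03e-04). Integrin beta-2-like (GSONMG00075139001), the shared chain of the leukocyte integrins, had 182, 182 and 244 CPM, against 752, 981 and 809 CPM in control cells (−2.07, SE 0.21, adjusted p = 3.00e-04). Sphingosine 1-phosphate receptor 4-like (GSONMG00075704001) had 8.23, 5.49 and 11.1 CPM, against 127, 55.1 and 92.1 CPM in control cells (−3.46, SE 0.37, adjusted p = 3.28e-04). These receptors sense the lipid that in mammals draws lymphocytes out of lymphoid organs. The G protein subunit beta-2-like gene (GSONMG00034032001), whose product passes on signals from receptors such as CCR7, had 10.4, 10.5 and 11.4 CPM, against 29.0, 32.4 and 34.0 CPM in control cells (−1.56, SE 0.19, adjusted p = 5.41e-04). All 4 kept these calls under all 16 alternative settings.

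With TNP-KLH these 4 genes lay between the other conditions in their means, at 385, 515, 51.4 and 19.8 CPM in the order above. TNP-LPS was lower than TNP-KLH for each (log2 fold changes −2.57, −1.35, −2.63 and −0.88, edgeR adjusted p = 0.0250, 0.0249, 0.0235 and 0.0379), as for 6 of the 87 genes of the list, where 0.745% of all genes were called lower. These calls and that of CCR4-like were lost without TNP-LPS replicate 1 or 2 or without any 1 of the TNP-KLH libraries, with adjusted p up to 0.128, 0.128, 0.0959 and 0.165, and 0.141 for CCR4-like. CCR4-like and the G protein subunit also lost them without TNP-LPS replicate 3 or control replicate 1, and the G protein subunit without control replicate 3.

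Regulator of G-protein signaling 18 (GSONMG00018413001), of a family that dampens such receptors, showed another order of conditions. It had 259, 230 and 81.3 CPM with TNP-LPS, 328, 504 and 170 CPM with TNP-KLH and 95.2, 109 and 44.3 CPM in control cells. In every replicate number it was highest with TNP-KLH. The difference of TNP-KLH from control was not called (log2 fold change 2.01, SE 0.53, edgeR adjusted p = 0.127) except with the replicate block (3.64e-05) or DESeq2 (0.00361).

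The cell markers gave the setting of these values. With TNP-LPS against control, 4 of 36 B cell markers fell, namely a BLNK gene (GSONMG00016155001, log2 fold change −2.75), a pair of CD79 alpha genes (GSONMG00019605001 and GSONMG00053375001, −1.75 and −2.14) and CD79 beta (GSONMG00069455001, −1.18), all components of B cell receptor signalling, and none rose. The BLNK genes with the most reads were not called. GSONMG00078045001 averaged 858 CPM with TNP-LPS and 1016 CPM in control cells (−0.24, edgeR adjusted p = 0.394). GSONMG00078046001 averaged 559 and 828 CPM (−0.57, edgeR adjusted p = 0.133). In this comparison 6.73% of all genes were called lower and 10.04% higher, which is also the background of the next counts. Among markers of other cells none rose, and none of 19 hemoglobin genes was called. Of the T and NK cell genes 1 of 23 fell, CD28-like (GSONMG00053086001, −1.77). Of the macrophage and dendritic cell genes 4 of 34 fell, all described as CD209 antigen-like. In the neutrophil list 1 of 9 fell, and it was eosinophil peroxidase-like (GSONMG00079314001, −3.29), by its name an eosinophil gene. Of the thrombocyte genes 2 of 8 fell, platelet glycoprotein Ib alpha chain-like (GSONMG00032549001, −3.36) and integrin alpha-IIb-like (GSONMG00067899001, −2.77). With TNP-KLH against control the only marker called was neutrophil cytosol factor 2-like (GSONMG00073143001), which rose by 1.39 on the log2 scale (edgeR adjusted p = 0.0429). In that comparison 0.760% of all genes were called higher and 0.117% lower. Single markers of other cells differed in level. CD3 epsilon (GSONMG00068288001) averaged 4.11 CPM with TNP-LPS, 9.44 CPM with TNP-KLH and 9.10 CPM in control cells, and the macrophage colony-stimulating factor 1 receptor-like gene (GSONMG00036252001) 2.58, 4.69 and 2.69 CPM. Others stood higher, such as macrophage mannose receptor 1-like (GSONMG00021955001) at 32.9, 39.4 and 41.9 CPM and perforin-1-like (GSONMG00044632001) at 10.1, 11.8 and 20.6 CPM. The summed markers of T and NK cells and of macrophages and dendritic cells, which in mammals also express CCR7 or CCL4, were lower in the TNP-LPS library than in the control library of each replicate number. The summed neutrophil markers stood at 1332, 686 and 828 CPM with TNP-LPS, in the order of the numbers, against 757, 776 and 805 CPM in control cells, higher in numbers 1 and 3. The part of these cells in the levels of the 3 genes was not tested.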

How the data were processed

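The authors trimmed the reads, mapped them with TopHat to the Genoscope trout genome and counted them per gene with SAMtools and HTSeq, and the deposited tables hold these whole-number counts for 9 libraries. Neither tool versions nor a strand setting could be found in the sources used here, so reads of overlapping antisense genes may not have been counted apart. All 3 tables carry identical counts. The tables' DESeq means, fold changes and p-values were not used, and 0 columns of per-sample values were left unmapped.

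All 9 libraries were fitted in edgeR 4.0.16 (R 4.3.3) with TMM factors and 1 factor of 3 groups, as a quasi-likelihood test with Benjamini-Hochberg adjustment, on the genes that reached 5 reads in 1 library or more. The fit without a block was run on simulated libraries that were not paired, so that run does not bear on the replicate block. Log2 CPM used a prior count of 2. DESeq2 1.42.0 was an alternative, as were its size factors, another filter, none, 2 groups only, a replicate block and each library left out. Fits without all libraries numbered 2 and blocked fits without 1 number were also run, the blocked ones chosen after seeing the data. Tables were handled with the data.table package, version 1.17.8, and figures drawn with Python 3.11.15 and matplotlib 3.10.9.

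Deviations from group means correlated at 0.227 to 0.645 in the 9 pairs of libraries with the same number and at −0.499 to 0.0345 in the 18 other pairs between conditions. The deviations of a group cancel out, so positive values in the pairs of the same number force the other pairs lower. The fits with the replicate block treat the numbers as pairs. The labels do not state a pairing, so it rests on these correlations and was not established. The main fit, which gives the calls where no block is named, did not use it.

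The members and the gene lists were chosen with earlier results of these data known. Lists were defined by words in the tables' protein descriptions, and false matches were removed after the descriptions, not the values, were read. Besides the members, the text names the 5 genes most correlated with each member, called markers and genes drawn from each list. A list gave up to 4 genes per comparison with the smallest p and a mean of at least 20 normalized counts in the higher group. Some that met this rule are not described above: CCR8-like (GSONMG00061752001), CCR9-like (GSONMG00079134001), CCL25-like (GSONMG00075657001), CCL2-like (GSONMG00017876001) and CCL3-like (GSONMG00035313001). EdgeR without a block called none of them. With the block it called CCR8-like lower for TNP-KLH against control (adjusted p = 0.0491) and CCL3-like lower between the antigens (adjusted p = 0.0412). The C-X-C chemokine receptor type 4-like gene, the genes named for chemokine 4, some cell markers that were not called and the position of the third CCR7 gene relative to the members were added after their values were seen.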

Additional observations from a re-analysis of the deposited data

How the results depend on the processing

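The direction of CCL4, CCR7 and CCR7-like held in all 3 comparisons under every alternative run. For the comparisons with TNP-LPS this is a description and no test. The genes were chosen with those levels known, and the alternatives refit the same libraries. The one result that reversed was C-X-C chemokine receptor type 4-like (GSONMG00075098001) between the antigens, not called in any of these fits, at −0.30 (log2) with all libraries and −0.96 to 0.39 without 1 library. Without 1 library, TNP-KLH against control ran from 1.07 to 2.09 (log2) for CCL4, 0.53 to 1.14 for CCR7 and 0.70 to 1.26 for CCR7-like. Calls for this comparison appeared only with the replicate block (1.53, 0.82 and 0.98), with the replicate block and no libraries numbered 1 (1.38, 1.16 and 1.27), numbered 2 (1.59 for CCL4 and 0.66 for CCR7-like) or numbered 3 (1.72 for CCL4), and with DESeq2 (1.06 for CCR7-like).

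Counts of called genes depended strongly on the setting. With the replicate block, 5167 genes were called higher and 4489 lower for TNP-LPS against control (3181 and 2133 without it), 1918 and 1340 for TNP-KLH against control (241 and 37), and 2692 and 1883 between the antigens (673 and 236). Over the chemokine lists together it called 7 and 33, 4 and 14, and 3 and 18 (3 and 16, 0 and 0, and 0 and 7 without it). DESeq2 called 1007 and 417 for TNP-KLH against control (2 and 3 in the lists) and 1591 and 730 between the antigens. A mean count of at least 10 gave 66 lower for TNP-KLH. Fits of only the compared groups called 0 and 0 for TNP-KLH and 13 and 32 between the antigens (1 lower in the lists). For TNP-LPS against control these fits called 2418 and 1497 (1 and 14 in the lists). Without the 3 libraries numbered 2, 1743 and 763 remained for TNP-LPS against control (1 and 10 in the lists) and 0 in the other comparisons, lists included. Without 1 library the counts ran from 2411 to 2915 higher and 1243 to 1885 lower for TNP-LPS against control (1 to 3 and 11 to 16 in the lists), 0 to 303 and 0 to 53 for TNP-KLH, and 0 to 580 and 0 to 271 between the antigens (0 to 7 lower in the lists). The cause of these differences was not tested. With 3 libraries a condition, the absence of a call does not show that a gene was unchanged.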
